A study of Homo sapiens with 10 samples.

Results

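Collagen chain genes were followed in RNA sequencing libraries of U2OS, a human osteosarcoma cell line, after depletion of SET in lines labelled p53 knockout (KO) and p53 wild type (WT). Members were all entries of the deposited tables whose symbol is COL, a number, A and a number, which gave 43 of 25593 entries. They comprised 11 fibrillar chains, 6 chains of type IV collagen, the network of basement membranes, and 26 other chains. The groups were a CRISPR p53 KO line with SET siRNA (n = 2), the same line with control siRNA (n = 2), a control CRISPR line labelled p53 WT with SET siRNA (n = 3), and that control line with control siRNA (n = 3), all harvested 96 h after siRNA transfection. SET encodes a histone chaperone that inhibits protein phosphatase 2A and binds p53, and the series title asks which genes the interplay of p53 and SET governs. Each p53 status is represented by 1 line derived after clone selection, so p53 status and other differences between the lines cannot be told apart. The design text names SET as the CRISPR target where it describes the p53 KO line, and groups were taken from the sample labels. Whether replicates came from separately grown cultures is not stated, and p-values therefore reflect only how far the libraries of a group lie apart.

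Collagens are extracellular proteins whose chains wind into a triple helix, and each chain type is encoded by its own gene. Type I collagen, the main fibrous protein of bone, is normally assembled from COL1A1 and COL1A2 chains together. Type III and type V collagens are incorporated into the same fibrils, type IV forms sheets in basement membranes, type VI forms beaded filaments, and FACIT chains decorate fibril surfaces. Chains are hydroxylated, folded and glycosylated in the endoplasmic reticulum, exported in large carriers, trimmed by propeptidases and crosslinked by lysyl oxidases.

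Measurements are FPKM, fragments scaled to transcript length and to the mapped fragments of the library, computed by the authors, so levels of different genes can be set beside each other per length. SET itself was at 14.9 and 14.9 FPKM in KO-line libraries with SET siRNA, against 158 and 169.7 FPKM with control siRNA. WT-line libraries had it at 12.3, 13.2 and 12.0 FPKM with SET siRNA, against 121, 125 and 126 FPKM with control siRNA. The authors' intervals imply 14288434 to 21775347 fragments per library, and 13804 to 14153 entries reached FPKM 1. Of the osteoblast-lineage markers RUNX2, ALPL, SPP1 and SPARC were detected, while SP7, BGLAP, IBSP and DLX5 stayed below FPKM 1 in all libraries and IBSP was listed at 0. All 5 blood and all 4 endothelial markers were below FPKM 1 in all libraries, with summed levels of 0.25 to 0.485 and 0.466 to 0.815 FPKM.

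Promoter stretches are shown for 4 of the chains that fell or rose with SET siRNA in both lines, and for the type IV pairs COL4A1 with COL4A2 and COL4A3 with COL4A4, whose members are transcribed away from each other. They are RefSeq windows on build GRCh38.p14, written 5′ to 3′ on the strand given, with the GC box GGGCGG, the CAAT box CCAAT and the TATA box TATAAA on either strand in capitals.
COL5A1, chr9:134641553-134641802, plus strand, 250 bases before the start: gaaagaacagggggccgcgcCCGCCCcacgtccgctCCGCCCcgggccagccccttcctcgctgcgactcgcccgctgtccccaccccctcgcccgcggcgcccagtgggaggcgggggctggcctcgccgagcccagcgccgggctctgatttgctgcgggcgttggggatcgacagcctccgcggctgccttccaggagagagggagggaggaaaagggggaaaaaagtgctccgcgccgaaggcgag
COL16A1, chr1:31704018-31704267, minus strand, 250 bases before the start: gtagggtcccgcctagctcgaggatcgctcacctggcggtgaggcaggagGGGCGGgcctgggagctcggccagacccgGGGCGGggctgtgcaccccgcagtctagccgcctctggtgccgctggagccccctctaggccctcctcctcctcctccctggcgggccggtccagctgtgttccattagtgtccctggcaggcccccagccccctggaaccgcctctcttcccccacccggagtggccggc
COL13A1, chr10:69801656-69801905, plus strand, 250 bases before the start: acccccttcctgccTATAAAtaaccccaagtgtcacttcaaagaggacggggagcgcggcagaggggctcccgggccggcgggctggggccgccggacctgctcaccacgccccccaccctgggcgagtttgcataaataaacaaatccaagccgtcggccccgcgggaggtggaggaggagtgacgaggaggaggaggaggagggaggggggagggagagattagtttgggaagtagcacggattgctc
COL11A1, chr1:103108523-103108772, minus strand, 250 bases before the start: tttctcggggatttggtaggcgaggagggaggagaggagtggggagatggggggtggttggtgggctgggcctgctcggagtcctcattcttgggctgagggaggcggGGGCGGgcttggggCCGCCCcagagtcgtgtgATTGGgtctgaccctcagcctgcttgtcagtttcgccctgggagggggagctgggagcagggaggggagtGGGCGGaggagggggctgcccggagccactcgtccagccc
COL4A1 and COL4A2, chr13:110307158-110307283, plus strand, all 126 bases between their starts: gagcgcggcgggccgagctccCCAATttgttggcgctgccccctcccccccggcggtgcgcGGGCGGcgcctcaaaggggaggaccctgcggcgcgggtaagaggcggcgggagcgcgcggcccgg
COL4A3, chr2:227164374-227164623, plus strand, 250 bases before the start and towards COL4A4: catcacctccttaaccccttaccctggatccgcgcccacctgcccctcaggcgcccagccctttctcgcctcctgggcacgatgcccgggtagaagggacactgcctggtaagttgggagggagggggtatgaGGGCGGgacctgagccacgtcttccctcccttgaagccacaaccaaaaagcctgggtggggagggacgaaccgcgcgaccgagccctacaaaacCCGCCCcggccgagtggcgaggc

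The table held windows for 31 of the 43 genes, 43 windows in all because some genes have several starts. COL1A1, COL3A1 and COL5A2 had no window, and 19 of the 43 windows belonged to tested chains. GGGCGG, a GC box, lay in 24 of the 43 windows (55.8%), against 42.6% of all 35116 windows. The median GC content was 64% in collagen windows and 58% in all windows. CCAAT was in 27.9% of collagen windows and 32.0% of all windows, and TATAAA in 18.6% and 10.7%. Among the stretches shown, GC boxes were in those of genes that fell (COL5A1, COL16A1) and of a gene that rose (COL11A1). Of these letters the COL13A1 stretch held TATAAA alone. Letters in a window are a description, not a binding site.

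Of the 43 members 24 passed the filter for testing (2 or more libraries at FPKM 1 or above), namely 6 of 11 fibrillar, 4 of 6 type IV and 14 of 26 other chains. The untested 19 were COL1A2, COL2A1, COL5A3, COL11A2, COL24A1, COL4A3, COL4A6, COL6A5, COL6A6, COL8A2, COL9A1, COL9A3, COL10A1, COL19A1, COL20A1, COL21A1, COL23A1, COL25A1 and COL28A1. None of them exceeded 0.989 FPKM in any library. COL3A1, COL4A4, COL7A1, COL14A1, COL15A1 and COL17A1 passed although they were below FPKM 1 in at least 1 library. Most of these passed through the groups in which they are high, so counts over tested chains describe the tested chains only. COL14A1 passed only through KO-line libraries and COL17A1 only through WT-line libraries. COL4A4 passed only through libraries with control siRNA, and COL15A1 only through WT-line libraries with SET siRNA. Their p-values for comparisons of those groups are not independent of the filter.

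Summed over all 43 chains, collagen message was lower with SET siRNA in both lines. The KO line held 632 ± 22.2 FPKM with SET siRNA and 792 ± 86.2 FPKM with control siRNA (SD, n = 2 each). The WT line held 797 ± 25.0 FPKM with SET siRNA and 955 ± 66.4 FPKM with control siRNA (SD, n = 3 each). Most of the difference lay in fibrillar chains, which summed to 189.6 ± 10.4 FPKM with SET siRNA against 335 ± 43.5 FPKM with control siRNA in the KO line, and to 188 ± 12.2 against 329.7 ± 33.7 FPKM in the WT line. Their share of collagen message was 29.6 to 30.4% against 41.6 to 42.9% in the KO line, and 23.0 to 24.6% against 33.1 to 35.2% in the WT line. Type IV chains took 30.5 to 31.3% with SET siRNA against 21.7 to 22.5% with control siRNA in the KO line, and 33.1 to 34.5% against 25.4 to 25.7% in the WT line. Their sums differed less than these shares, at 195 ± 3.17 FPKM with SET siRNA against 175 ± 14.6 FPKM with control siRNA in the KO line (SD, n = 2 each) and 271 ± 5.25 against 244 ± 16.0 FPKM in the WT line (SD, n = 3 each). No library with SET siRNA overlapped a control library of its own line in either share.

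**Figure D1:**
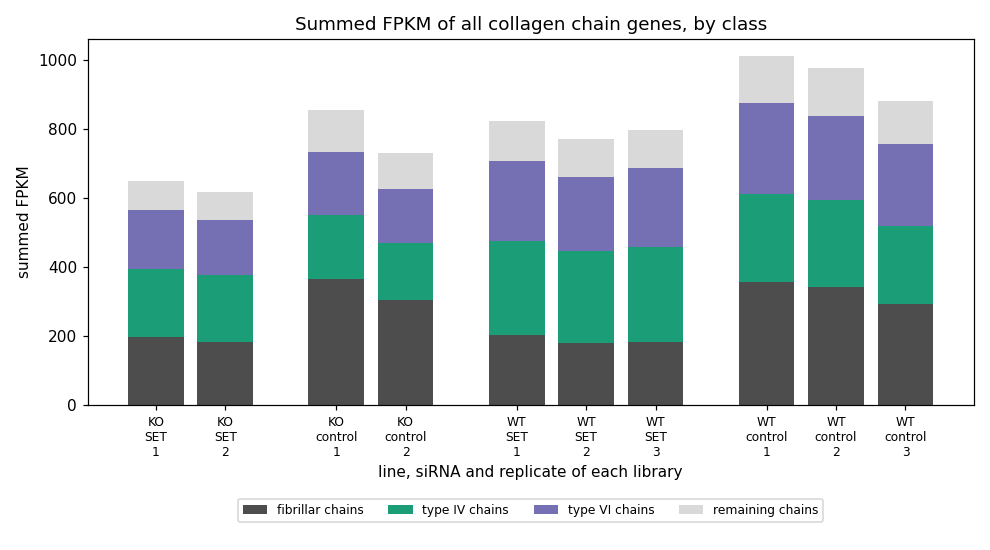
Summed FPKM of all 43 collagen chain genes in each of the 10 libraries, stacked by class, with line, siRNA and replicate on the x axis. The fibrillar part is 179.9 to 202 FPKM in the 5 libraries with SET siRNA and 291 to 365 FPKM in the 5 with control siRNA.

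COL1A1 made up 75.7 to 81.4% of the fibrillar total in the 10 libraries, while its partner chain COL1A2 was close to undetected. COL1A1 (chromosome 17, 48261457 to 48279000 in the files, whose build is not given) was at 137 to 290.3 FPKM. It had the highest mean over all libraries, but COL4A2 was above it in all 3 WT-line libraries with SET siRNA and in replicate 2 of the KO line with SET siRNA. COL1A2 (chromosome 7, 94023873 to 94060544) was at 0.0473 to 0.647 FPKM, with authors' intervals that imply 3 to 51 fragments per library against 13324 to 29385 for COL1A1. COL1A2 was at 0.0537 and 0.0547 FPKM in the KO line with SET siRNA and 0.0925 and 0.0659 FPKM with control siRNA. WT-line values were 0.139, 0.0473 and 0.0819 FPKM with SET siRNA and 0.56, 0.647 and 0.116 FPKM with control siRNA. The ratio of COL1A1 to COL1A2 ranged from 429 to 3588 over the libraries. An overlapping entry, LOC100506027, reached 0.675 FPKM, and the sources used here do not say whether reads were counted by strand, so low COL1A2 values are uncertain.

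**Figure D2:**
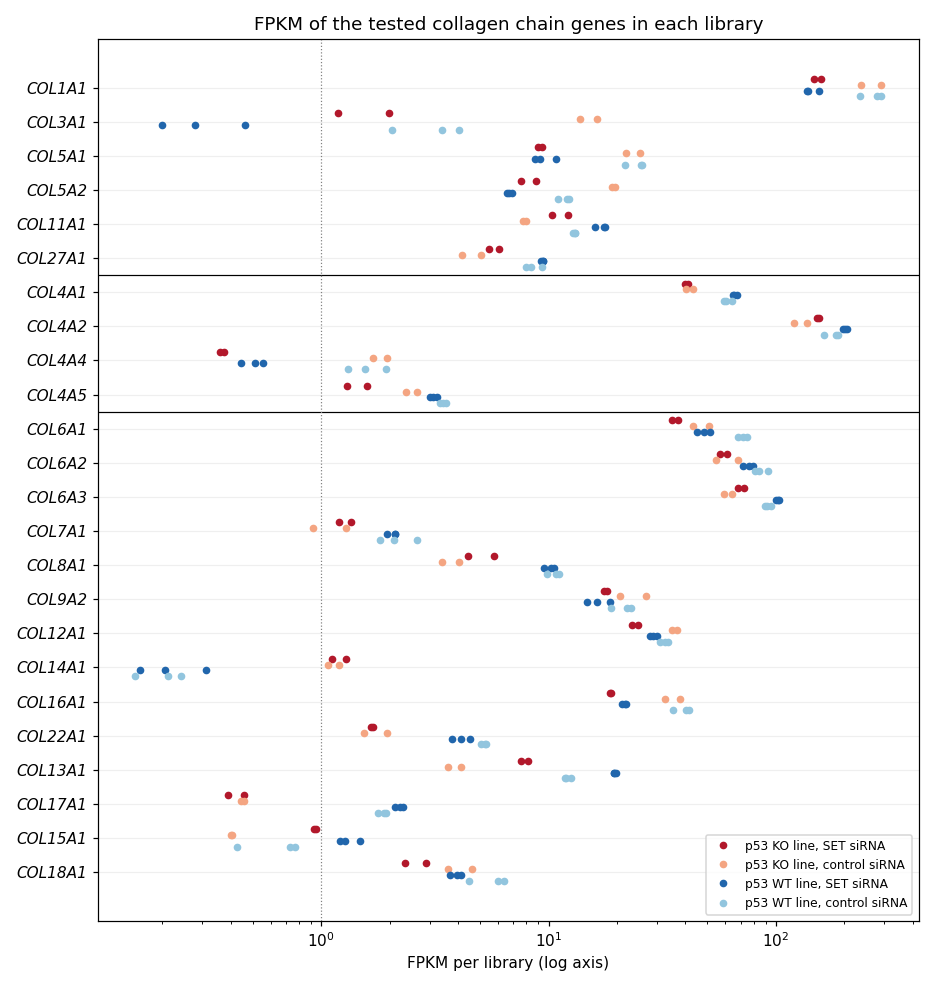
FPKM in each library (log axis) of the 24 tested chains, with fibrillar chains at the top, type IV chains in the middle and other chains below, and 4 groups by colour from top to bottom within a gene. COL1A1 and COL4A2 are highest, and COL3A1 spans 0.2 to 16.3 FPKM.

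SET siRNA against control siRNA asked which chains change with SET depletion in each line. Fibril-forming COL3A1, COL5A1, COL1A1 and COL5A2 were lower with SET siRNA in both lines, with COL3A1 furthest below its control level, while fibrillar COL11A1 and transmembrane COL13A1 were higher. In limma, a linear model with a shared estimate of the spread fitted over all 14813 tested genes on log2(FPKM + 1), 17 of 24 chains were called in the KO line (adjusted p below 0.05), 7 higher and 10 lower. Of all tested genes 37.6% were called there, 19.8% higher and 17.9% lower. In the WT line 16 were called, 5 higher and 11 lower, where 54.8% of all genes were called, 30.8% higher and 24.0% lower. At least 2-fold on this scale, 4 chains were lower in the KO line (0.979% of all genes were called lower to that extent) and 2 in the WT line (1.06% of all genes), and 0 were higher (0.689% and 1.27%); in either direction 1.67% and 2.33% of all genes were. The median log2 change of the 6 tested fibrillar chains was -0.96 in the KO line and -0.80 in the WT line, against 0.02 and 0.04 over all tested genes. For the 4 tested type IV chains it was -0.28 and -0.00, and for the 14 other chains -0.03 and -0.11.

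COL3A1 encodes the single chain of type III collagen, found with type I in extensible tissues. It was at 1.99 and 1.19 FPKM in the KO line with SET siRNA, against 16.3 and 13.7 FPKM with control siRNA. In the WT line it was at 0.462, 0.2 and 0.278 FPKM with SET siRNA, against 3.4, 4.03 and 2.05 FPKM with control siRNA. The groups did not overlap in either line, and the FPKM means with SET siRNA were 0.106-fold (KO line) and 0.0991-fold (WT line) of the control means. The log2 change was -2.64 ± 0.23 (SE) in the KO line (adjusted p = 5.28e-05) and -1.64 ± 0.19 in the WT line (adjusted p = 9.47e-05) in limma. The pseudocount of 1 compresses the WT-line change, which was -2.98 with a pseudocount of 0.1.

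COL5A1 and COL5A2 encode chains of type V collagen, which nucleates type I fibrils. COL5A1 was at 9.41 and 9.02 FPKM in the KO line with SET siRNA, against 25.3 and 21.9 FPKM with control siRNA, and at 10.8, 9.15 and 8.74 against 25.5, 25.9 and 21.8 FPKM in the WT line. Its log2 change was -1.27 ± 0.11 (SE) in the KO line and -1.26 ± 0.09 in the WT line (limma adjusted p = 5.61e-05 and 6.28e-06). COL5A2 was at 8.81 and 7.57 FPKM against 19.5 and 18.9 FPKM in the KO line, and at 6.59, 6.93 and 6.7 against 12.3, 12.0 and 11 FPKM in the WT line. COL5A2 changed by -1.14 ± 0.08 in the KO line and -0.72 ± 0.06 in the WT line (adjusted p = 1.44e-05 and 1.82e-05). All libraries with SET siRNA were below all control libraries of the same line for both chains. COL3A1 and COL5A2 are neighbours on chromosome 2, 19168 bases apart in the files.

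COL1A1, the chain of type I collagen that was detected, was at 158 and 146 FPKM in the KO line with SET siRNA, against 290.3 and 236 FPKM with control siRNA. In the WT line it was at 155, 137 and 139 FPKM with SET siRNA, against 289, 278 and 234 FPKM with control siRNA. It fell by 0.78 ± 0.12 (SE) on the log2 scale in the KO line and by 0.89 ± 0.10 in the WT line (limma adjusted p = 0.00112 and 7.67e-05). Replicate 3 of WT control cells and replicate 2 of KO control cells were the lowest controls for COL1A1, COL5A1 and COL16A1, and still lay above every library with SET siRNA.

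COL11A1, a chain of the type XI collagen of cartilage fibrils, moved the other way. It was at 12.2 and 10.3 FPKM in the KO line with SET siRNA, against 7.75 and 7.95 FPKM with control siRNA, and at 17.7, 16.0 and 17.5 against 13.1, 12.9 and 13.1 FPKM in the WT line. It rose by 0.47 ± 0.08 (SE) and 0.36 ± 0.06 on the log2 scale in the KO and WT lines (limma adjusted p = 0.00166 and 0.00113), with no overlap. COL27A1, the remaining tested fibrillar chain, was at 5.47 and 6.05 FPKM against 5.05 and 4.17 FPKM in the KO line, and at 9.5, 9.48 and 9.31 against 9.32, 8.42 and 7.95 FPKM in the WT line. Its log2 change was 0.27 in the KO line (adjusted p = 0.0442) and 0.13 in the WT line (adjusted p = 0.179).

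**Figure D3:**
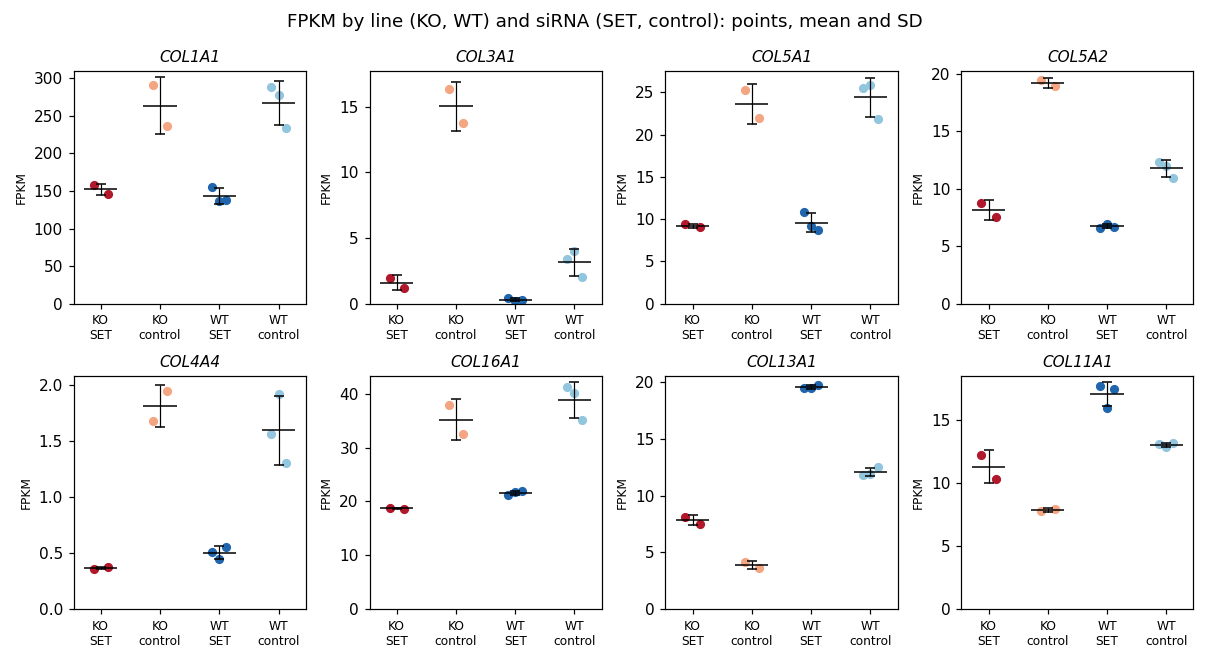
FPKM of 8 chains in each library by line and siRNA, with points for libraries, horizontal lines for means and bars for SD. COL1A1, COL3A1, COL5A1, COL5A2, COL4A4 and COL16A1 are lower, and COL13A1 and COL11A1 higher, with SET siRNA than with control siRNA in each line.

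Among type IV chains the abundant pair and the scarce ones differed. COL4A1 and COL4A2 encode the chains of the common basement membrane trimer and start 134 bases apart in the files (chromosome 13, 110801310 to 110959496 and 110959631 to 111165374). COL4A2 was at 154 and 151 FPKM with SET siRNA against 138 and 119.7 FPKM with control siRNA in the KO line, and at 201, 197 and 206 against 187, 183 and 162 FPKM in the WT line. COL4A1 was at 41.1 and 39.9 against 43.0 and 40.3 FPKM in the KO line and at 67.3, 64.8 and 65.7 against 64.4, 60.3 and 59.3 FPKM in the WT line. COL4A2 had log2 changes of 0.25 and 0.18 in the KO and WT lines (limma adjusted p = 0.0372 and 0.0411), and COL4A1 of -0.04 and 0.10 (adjusted p = 0.595 and 0.0721). The ratio of COL4A2 to COL4A1 was 3.75 to 3.79 with SET siRNA against 2.97 to 3.2 with control siRNA in the KO line, and 2.98 to 3.13 against 2.73 to 3.04 in the WT line.

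COL4A4, whose product joins COL4A3 and COL4A5 chains in the basement membrane of the kidney filter, fell with SET siRNA. It was at 0.36 and 0.375 FPKM with SET siRNA against 1.68 and 1.95 FPKM with control siRNA in the KO line, and at 0.513, 0.446 and 0.555 against 1.56, 1.92 and 1.31 FPKM in the WT line. The log2 change was -1.04 ± 0.12 (SE) and -0.78 ± 0.10 (limma adjusted p = 0.000215 and 0.000137), and -2.03 and -1.48 with a pseudocount of 0.1. COL4A3, on chromosome 2 and transcribed the opposite way, lies 5 bases away in the files. In the RefSeq windows 418 bases lie between their starts. COL4A3 was too low to test, at 0.0192 ± 0.00568 FPKM against 0.105 ± 0.0142 FPKM in the KO line (SD, n = 2 each) and 0.0403 ± 0.0166 against 0.118 ± 0.024 FPKM in the WT line (SD, n = 3 each). It rests on 2 to 18 implied fragments per library and shares its position with LOC654841. COL4A5 was at 1.6 and 1.3 FPKM against 2.63 and 2.36 FPKM in the KO line, a log2 change of -0.52 ± 0.08 (SE, limma adjusted p = 0.00143), and at 3.23, 3.02 and 3.1 against 3.55, 3.34 and 3.42 FPKM in the WT line (-0.11, adjusted p = 0.202). Its head-to-head partner COL4A6 did not exceed 0.157 FPKM.

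Type VI chains, which assemble together into beaded filaments of the matrix around cells, differed in their response. COL6A1 was at 36.9 and 34.9 FPKM with SET siRNA against 50.5 and 43.0 FPKM with control siRNA in the KO line, and at 51.2, 45.2 and 48.1 against 74.9, 71.7 and 67.8 FPKM in the WT line. It fell by 0.37 ± 0.09 (SE) and 0.56 ± 0.07 on the log2 scale (limma adjusted p = 0.00918 and 0.00015). COL6A3 was at 72.2 and 68.1 against 64.1 and 59.2 FPKM in the KO line and at 103, 99.8 and 102 against 95.0, 89.5 and 91.1 FPKM in the WT line, with log2 changes of 0.18 and 0.14 (adjusted p = 0.0247 and 0.0221). COL6A2 was at 61.1 and 56.8 against 68.3 and 54.2 FPKM in the KO line and at 79.4, 71.5 and 76.3 against 92.4, 84.6 and 80.7 FPKM in the WT line, and was not called (-0.05 and -0.18, adjusted p = 0.757 and 0.106). COL6A3 stood at 1.95 to 1.96 times COL6A1 with SET siRNA against 1.27 to 1.38 times with control siRNA in the KO line, and at 2.01 to 2.21 against 1.25 to 1.34 times in the WT line. An entry within COL6A1, LOC100652958, ranged from 0.000193 to 14.3 FPKM over the libraries. How fragments were divided between these entries was not tested, so COL6A1 levels and ratios are less certain.

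Among FACIT chains, COL16A1 fell in both lines. It was at 18.8 and 18.6 FPKM with SET siRNA against 37.9 and 32.5 FPKM with control siRNA in the KO line, and at 21.1, 21.7 and 21.9 against 41.3, 40.1 and 35.1 FPKM in the WT line. The log2 change was -0.87 ± 0.09 (SE) and -0.82 ± 0.07 (limma adjusted p = 0.000103 and 1.72e-05). COL12A1, a fibril-surface chain of dense connective tissue, was at 23.2 and 24.8 against 35.0 and 36.8 FPKM in the KO line (-0.56 ± 0.06, adjusted p = 0.000132). In the WT line COL12A1 was at 28.0, 29.9 and 28.8 against 31.0, 33.4 and 32.6 FPKM (-0.16 ± 0.05, adjusted p = 0.0192). COL9A2, a cartilage FACIT chain, was at 18.0 and 17.5 against 26.9 and 20.7 FPKM in the KO line (-0.39, adjusted p = 0.053) and at 18.7, 14.7 and 16.3 against 22.2, 23.0 and 18.8 FPKM in the WT line (-0.35, adjusted p = 0.0274). COL22A1 had log2 changes of -0.03 and -0.28 in the KO and WT lines (adjusted p = 0.801 and 0.0124), and COL14A1 of 0.04 and 0.03 (adjusted p = 0.77 and 0.809).

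COL13A1, a transmembrane collagen of cell adhesion sites, rose in both lines. It was at 8.14 and 7.53 FPKM with SET siRNA against 4.12 and 3.6 FPKM with control siRNA in the KO line, and at 19.5, 19.5 and 19.7 against 11.8, 11.9 and 12.5 FPKM in the WT line. The log2 change was 0.86 ± 0.07 (SE) and 0.65 ± 0.05 (limma adjusted p = 2.84e-05 and 1.38e-05). The multiplexins COL15A1 and COL18A1, proteoglycan collagens of basement membrane zones, had changes of opposite sign. COL15A1 was at 0.946 and 0.931 against 0.402 and 0.408 FPKM in the KO line. In the WT line it was at 1.48, 1.27 and 1.22 against 0.425, 0.766 and 0.73 FPKM. Its log2 changes were 0.46 and 0.51 (adjusted p = 0.0139 and 0.00186), with FPKM means 2.32-fold and 2.07-fold of control. COL18A1 was at 2.89 and 2.33 against 4.59 and 3.62 FPKM in the KO line and at 4.13, 3.68 and 3.97 against 6.35, 5.99 and 4.49 FPKM in the WT line (-0.50 and -0.41, adjusted p = 0.0273 and 0.0171). Short-chain COL8A1 was at 5.75 and 4.43 against 4.03 and 3.39 FPKM in the KO line (0.37, adjusted p = 0.0299) and at 10.3, 9.53 and 10.6 against 11.2, 10.8 and 9.83 FPKM in the WT line (-0.06, adjusted p = 0.608). COL7A1, the anchoring fibril chain (0.12 and -0.05, adjusted p = 0.498 and 0.729), and COL17A1, a hemidesmosome chain (-0.03 and 0.16, adjusted p = 0.79 and 0.0597), were not called.

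**Figure D4:**
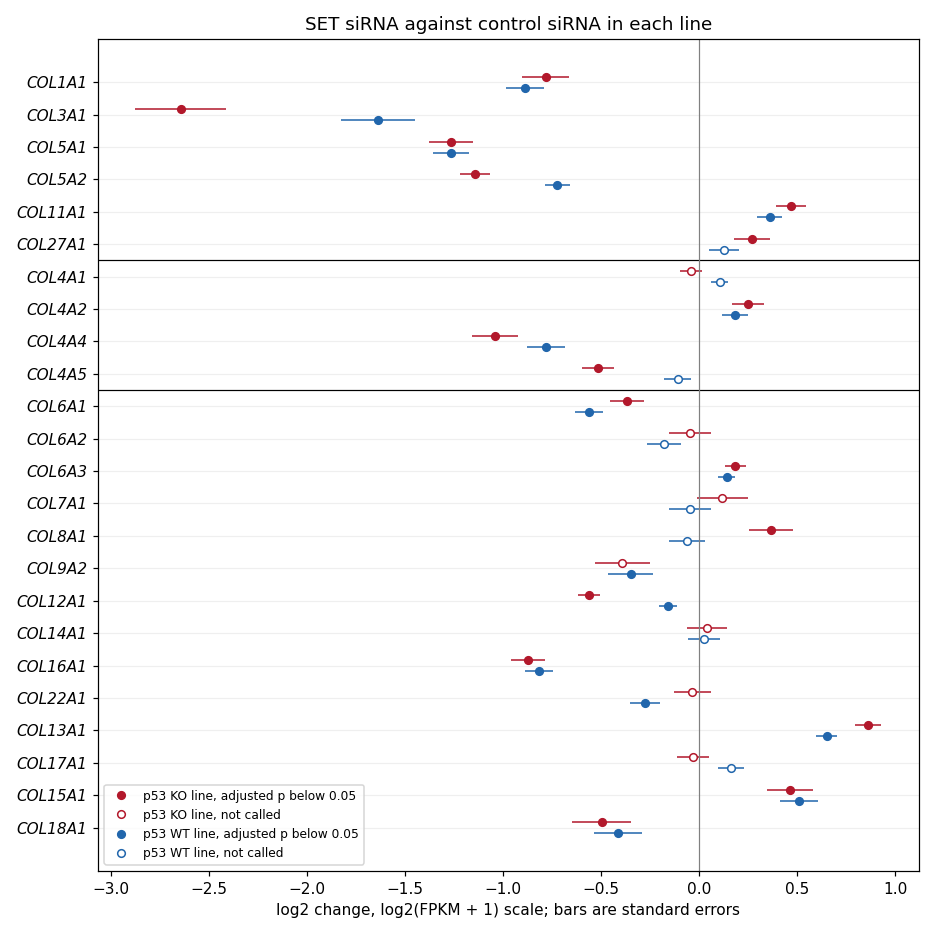
Log2 change with SET siRNA relative to control siRNA on the log2(FPKM + 1) scale, with standard errors, for the KO line above and the WT line below in each gene, and filled points for adjusted p below 0.05. COL3A1, COL5A1, COL5A2, COL1A1, COL16A1 and COL4A4 lie well left of 0 in both lines and COL13A1 and COL11A1 right of it.

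Several of the smaller calls rested on single libraries or on the processing. In the KO line the calls of COL27A1, COL4A2, COL6A3, COL8A1 and COL15A1 were lost without the second control library (adjusted p = 0.0528 to 0.238), and that of COL18A1 without the first (0.135). The same calls other than COL18A1 were also lost without the first SET siRNA library of that line (0.0661 to 0.21), and those of COL27A1, COL4A2, COL15A1, COL18A1 and COL6A1 without the second (0.0591 to 0.214). In the WT line, leaving out a library of that line ended the calls of COL4A2 (any but the first control), COL6A3 (controls 2 or 3, SET siRNA libraries 1 or 3), COL12A1 (the same 4), COL9A2 (controls 1 or 2, SET siRNA libraries 2 or 3), COL18A1 (first or second control, second SET siRNA) and COL22A1 (second SET siRNA), with adjusted p = 0.0509 to 0.131. Because the spread is shared by all groups, leaving out libraries of the other line also ended the calls of COL27A1 and COL4A2 in the KO line (any WT SET siRNA library, and for COL27A1 the second WT control, 0.0506 to 0.0634) and of COL4A2 in the WT line (either KO SET siRNA library, 0.058 and 0.0581). In the KO line, array weights ended the calls of COL27A1, COL4A2, COL6A3, COL8A1 and COL18A1 (adjusted p = 0.0512 to 0.0813), as did a fit to the libraries compared alone (0.0534 to 0.145). Without the filter those of COL27A1, COL4A2, COL8A1 and COL18A1 were lost (0.0823 to 0.0945), with median-of-ratios scaling those of COL27A1 and COL4A2 (0.0568 and 0.0507), and without the variance trend that of COL4A2 (0.0504). For the WT line median-of-ratios scaling ended the calls of COL4A2 and COL6A3 (0.0976 and 0.0859), no filter those of COL4A2, COL9A2 and COL18A1 (0.058 to 0.0973), and no trend that of COL4A2 (0.0548).

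The interaction compares the SET siRNA response of both lines, taken as the KO-line response minus the WT-line response. Of 24 chains 4 were called (limma adjusted p below 0.05), all negative, where 19.1% of all tested genes were called, 10.5% negative and 8.60% positive. At least 2-fold on the log2(FPKM + 1) scale, 1 chain was called (COL3A1), against 0.621% of all genes (0.432% negative, 0.189% positive). COL12A1 had an interaction of -0.40 ± 0.08 (SE, adjusted p = 0.00821), with FPKM means of 0.669-fold of control in the KO line and 0.893-fold in the WT line. COL5A2 had -0.42 ± 0.10 (adjusted p = 0.021), lost without the second KO SET siRNA library (0.076) or the second WT SET siRNA library (0.0519). COL4A5 had -0.41 ± 0.11 (adjusted p = 0.0297), lost without the first KO control library, the second KO SET siRNA library, any WT control library or the first or second WT SET siRNA library (0.0508 to 0.105), and with quantile scaling (0.0523). COL3A1 had -1.005 ± 0.30 (adjusted p = 0.0452), which was -0.22 with a pseudocount of 0.1 (adjusted p = 0.77) and 0.04 on implied fragments (0.962), and its FPKM means were 0.106-fold and 0.0991-fold of control in the KO and WT lines. That call was also lost without any 1 library except WT controls 2 and 3 (0.0557 to 0.146), and with array weights, no filter or quantile scaling (0.0939, 0.132 and 0.0638).

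The KO line against the WT line asked which chains differ between the lines under the same siRNA. Most chains that differed were lower in the KO line, while COL3A1, COL5A2 and COL14A1 were higher. With SET siRNA 18 of 24 chains were called, 3 higher and 15 lower (48.4% of all tested genes, 23.6% higher and 24.8% lower). With control siRNA 18 were called, 4 higher and 14 lower (47.9% of all genes, 25.7% higher and 22.2% lower). At least 2-fold on the log2(FPKM + 1) scale, with SET siRNA 2 chains were lower and 0 higher. Of all genes 3.56% were called to that extent, 2.63% lower and 0.925% higher. With control siRNA 3 chains were lower and 1 higher (2.52% of all genes, 1.88% lower and 0.635% higher). This scale compresses low chains. On FPKM means with SET siRNA, COL3A1 (5.08-fold), COL14A1 (5.31-fold), COL22A1 (0.405-fold) and COL4A5 (0.465-fold) also differed by more than 2-fold. With control siRNA the same held for COL14A1 (5.59-fold) and COL17A1 (0.243-fold). The median log2 difference over tested chains was -0.40 with SET siRNA and -0.41 with control siRNA, against -0.00 and 0.02 over all tested genes.

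COL13A1, from the values above, differed by -1.22 ± 0.06 (SE) with SET siRNA and -1.43 ± 0.06 with control siRNA (limma adjusted p = 6.16e-07 and 4.61e-07). COL17A1 was at 0.388 and 0.458 FPKM in the KO line against 2.23, 2.11 and 2.3 FPKM in the WT line with SET siRNA, and at 0.46 and 0.446 against 1.78, 1.88 and 1.94 FPKM with control siRNA. Its differences were -1.17 ± 0.07 and -0.98 ± 0.07 (adjusted p = 2.56e-06 and 1.26e-05). On FPKM means the KO line held 0.191-fold and 0.243-fold of the WT-line level of COL17A1, against 0.401-fold and 0.32-fold for COL13A1. COL8A1 differed by -0.87 ± 0.10 and -1.30 ± 0.10 (adjusted p = 0.000116 and 1.73e-05). COL22A1, a FACIT of tissue junctions, was at 1.69 and 1.66 FPKM in the KO line against 4.5, 3.77 and 4.11 FPKM in the WT line with SET siRNA, and at 1.94 and 1.54 against 5.32, 5.24 and 5.03 FPKM with control siRNA (-0.94 and -1.18, adjusted p = 2.38e-05 and 9.67e-06). KO-line libraries lay below all WT-line libraries of the same siRNA for each of these chains.

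COL4A1 differed by -0.69 and -0.55, COL4A2 by -0.39 and -0.46, COL6A3 by -0.53 and -0.57, COL11A1 by -0.56 and -0.66 and COL27A1 by -0.63 and -0.77 with SET and control siRNA, all called (limma adjusted p = 5.91e-06 to 0.00192). COL6A1 differed by -0.41 and -0.61, COL6A2 by -0.35 and -0.49, COL4A5 by -0.75 and -0.34 and COL18A1 by -0.45 and -0.37 (adjusted p = 4.67e-05 to 0.05). COL7A1 was at 1.2 and 1.35 FPKM in the KO line against 2.12, 1.95 and 2.11 FPKM in the WT line with SET siRNA, and at 1.29 and 0.921 against 2.63, 2.08 and 1.82 FPKM with control siRNA (-0.43 and -0.59, adjusted p = 0.0145 and 0.00314). COL12A1 was lower in the KO line with SET siRNA (-0.26, adjusted p = 0.00329) and had a difference of 0.15 with control siRNA (adjusted p = 0.0466).

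COL3A1 was higher in the KO line, by 0.97 ± 0.21 (SE) on the log2 scale with SET siRNA and 1.97 ± 0.21 with control siRNA, 5.08-fold and 4.76-fold on FPKM means (limma adjusted p = 0.00447 and 0.000101). COL5A2 was higher by 0.24 ± 0.07 with SET siRNA and 0.66 ± 0.07 with control siRNA (adjusted p = 0.0182 and 9.91e-05). COL14A1 encodes a fibril-surface chain. With SET siRNA it was at 1.28 and 1.11 FPKM in the KO line against 0.31, 0.206 and 0.159 FPKM in the WT line. With control siRNA it was at 1.19 and 1.07 against 0.243, 0.153 and 0.212 FPKM. Its differences were 0.84 ± 0.09 and 0.83 ± 0.09 (adjusted p = 7.96e-05 and 0.000134), 5.31-fold and 5.59-fold on FPKM means. COL14A1 entered testing only through the KO-line libraries, where it is high, so these p-values are not independent of the filter. COL1A1 (0.08 and -0.02, adjusted p = 0.563 and 0.892), COL5A1 (-0.04 and -0.04, 0.745 and 0.755), COL16A1 (-0.20 and -0.14, 0.0669 and 0.171), COL9A2 (0.10 and 0.14, 0.547 and 0.375), COL4A4 (-0.14 and 0.12, 0.323 and 0.373) and COL15A1 (-0.26 and -0.22, 0.0748 and 0.127) were not called. The ratio of COL5A1 to COL5A2 was 1.07 to 1.19 in the KO line against 1.3 to 1.64 in the WT line with SET siRNA, and 1.16 to 1.3 against 1.98 to 2.15 with control siRNA.

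Neighbouring genes gave the level of regional differences between the lines. This was the median log2 difference of up to 10 tested genes on each side of a chain, collagen chain genes left out. For COL13A1 the neighbours' median was -0.03 with SET siRNA and -0.10 with control siRNA, for COL8A1 -0.03 and 0.13, for COL22A1 0.08 and 0.07 and for COL17A1 0.41 and 0.36. For COL27A1 on chromosome 9 the neighbours were lower too, at -0.38 and -0.35, against -0.63 and -0.77 for the chain. COL3A1 stood above all 20 of these neighbours under both siRNAs, whose medians were -0.13 and 0.17. COL5A2, which lies next to COL3A1 and is not counted among the 20, was also higher in the KO line (0.24 and 0.66). For COL14A1 on chromosome 8 the neighbours were higher too, with medians of 0.21 and 0.19, against 0.84 and 0.83 for the chain.

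**Figure D5:**
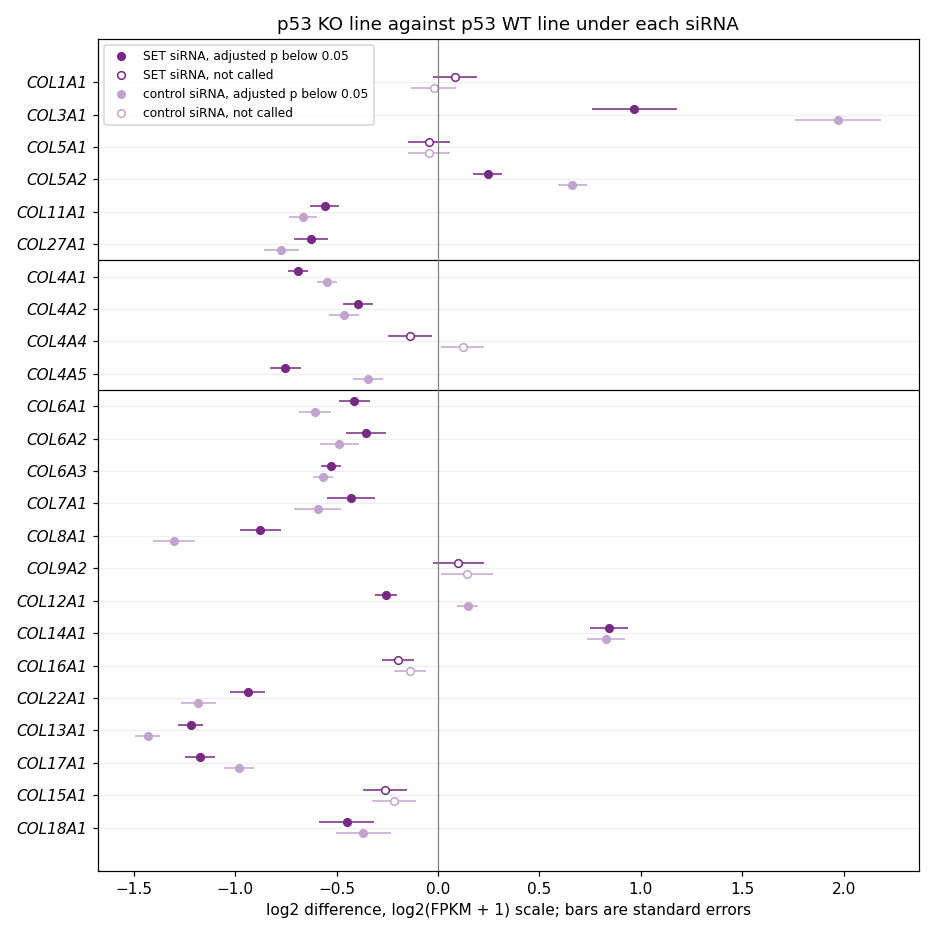
Log2 difference of the KO line from the WT line on the log2(FPKM + 1) scale, with standard errors, with SET siRNA above and control siRNA below in each gene, and filled points for adjusted p below 0.05. COL13A1, COL17A1, COL8A1 and COL22A1 lie farthest left and COL3A1 and COL14A1 farthest right.

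Some differences between the lines also rested on single libraries or on the processing. Without the first KO SET siRNA library the difference under SET siRNA was 0.74 for COL3A1 (adjusted p = 0.0511) and 0.15 for COL5A2 (0.182), and COL5A2 was also lost without the first WT SET siRNA library (0.0526). COL12A1 under control siRNA lost its call without 8 of the 10 libraries, all but the first KO control and the second WT control (0.055 to 0.217). Under SET siRNA the calls of COL6A2 and COL18A1 were lost without the second KO SET siRNA library (0.0981 and 0.162) and that of COL7A1 without the first (0.0935). COL18A1 was also lost there without WT SET siRNA library 1 or 3 (0.0607 and 0.0507), and under control siRNA without any but KO control 1 and WT control 3 (0.0554 to 0.319). Under control siRNA COL12A1 and COL18A1 also lost their calls with array weights, no filter, no trend and only the libraries compared (0.0613 to 0.161 and 0.0518 to 0.131), COL12A1 with median-of-ratios scaling (0.0648) and COL18A1 with a pseudocount of 0.1 (0.0534). With SET siRNA COL18A1 was lost without the filter (0.0694). COL6A2 under control siRNA moved to -0.32 without the second KO control library but stayed called (0.0223).

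Genes that modify, export, trim or bind collagen were read from lists chosen with earlier results known. Beside their counts stand the shares of all tested genes, of which 37.6% were called with SET siRNA in the KO line (19.8% higher, 17.9% lower), 54.8% in the WT line (30.8% higher, 24.0% lower) and 19.1% for the interaction (10.5% negative). Of 18 tested genes of procollagen modification and folding, 2 were higher and 5 lower with SET siRNA in the KO line (38.9% called). In the WT line 3 were higher and 8 lower (61.1% called). The shares called in either direction were near those of all genes. By direction, falls outnumbered rises in both lines, but a list chosen with earlier results known cannot be set against all genes in this way. The genes named next had the largest changes in each line and all fell. None of those called higher is among them. FKBP14, a prolyl isomerase of the endoplasmic reticulum, changed by -1.08 and -0.65 on the log2 scale in the KO and WT lines, and LEPRE1, a prolyl 3-hydroxylase, by -0.66 and -0.61. GLT25D1, a collagen galactosyltransferase, changed by -0.46 and -0.96, and LEPREL4, a protein related to LEPRE1, by -0.52 and -0.84. Of 11 tested export genes 2 were higher and 2 lower in the KO line (36.4% called), and 7 and 1 in the WT line (72.7% called). The cargo receptor TMED2 changed by -0.29 and -0.21 in the KO and WT lines, and MIA3, which loads procollagen into carriers, by -0.23 and 0.33. KLHL12, an adaptor for large carriers, rose by 0.21 and 0.67, and the coat subunit SEC24D had changes of -0.08 (adjusted p = 0.629, not called) and 0.66. The interaction was called for 6 of these 11 (54.5%), all negative, with SEC24D at -0.74 and MIA3 at -0.56.

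Of 11 tested propeptide cleavage and crosslinking genes 1 was higher and 5 lower with SET siRNA in the KO line (54.5% called, against 37.6% of all genes), and 1 and 6 in the WT line (63.6%, against 54.8%). LOXL1, a lysyl oxidase, was at 14.3 FPKM against 43.6 FPKM in the KO line and 15.2 against 48.0 FPKM in the WT line (means), and fell by 1.54 and 1.59 on the log2 scale. LOXL4, of the same family, fell by 0.60 and 0.31. PCOLCE, an enhancer of C-propeptide removal, had changes of -0.38 (adjusted p = 0.0929, not called) and -0.79 in the KO and WT lines. Of 8 tested receptor and uptake genes 3 were higher and 2 lower in the KO line (62.5% called), and 3 and 3 in the WT line (75.0% called). The collagen-binding kinases DDR1 and DDR2 rose by 0.59 and 0.43 in the KO line and by 0.55 and 0.68 in the WT line, and the collagen receptor GP6 fell by 0.54 and 0.60 in the KO and WT lines. Between the lines ITGA2, a collagen-binding integrin subunit, differed most in this list, by -2.56 with SET siRNA and -2.25 with control siRNA, followed by GPR56, an adhesion receptor for type III collagen, by -0.89 and -0.96.

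Of 26 tested TGF-beta and regulator genes 2 were higher and 9 lower with SET siRNA in the KO line, and 3 and 8 in the WT line. That is 42.3% called in each line, against 37.6% and 54.8% of all genes. CREB3L1, a transcription factor acting on type I collagen in bone, fell by 0.78 and 0.90, and the TGF-beta co-receptor TGFBR3 by 0.65 and 0.91 in the KO and WT lines. Of the 10 fibril-associated proteoglycans LUM alone was tested, with changes of -0.81 and -0.23. Of all tested genes 17.9% were called lower and 19.8% higher with SET siRNA in the KO line, and 24.0% and 30.8% in the WT line. Fibroblast markers were called lower with SET siRNA in 7 of 7 tested cases in each line. Osteoblast-lineage markers were called lower in 4 of 5 in the KO line and 5 of 5 in the WT line. The summed levels of fibroblast and osteoblast-lineage markers were 1331 to 1449 against 1628 to 1679 FPKM and 135 to 144 against 322 to 348 FPKM in the KO line. In the WT line they were 1046 to 1129 against 1478 to 1528 FPKM and 193 to 212 against 435 to 452 FPKM. Epithelial markers had 2 rises and 2 falls of 6 in the KO line and 2 and 3 in the WT line, with sums of 279 to 283 against 289 to 329 FPKM and 504 to 516 against 670.4 to 705 FPKM. Cartilage markers had 1 and 1 of 3 in the KO line and 1 and 2 in the WT line. DCN, KRT5 and COMP stayed below FPKM 1 in all libraries. The marker lists were chosen with earlier results of these data known, and values of most single markers are not given here. The part of these marker shifts in the collagen changes was not tested.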

How the data were processed

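RNA sequencing was done on 10 libraries in 4 groups. The authors' deposited gene tables hold FPKM values with confidence bounds, and the submitters' processing notes name Cufflinks 2.0.2, TopHat2 2.0.4 and bcl2fastq 1.8.4. For genome build, annotation and use of strand: not given in the sources used here. Starts in the files are counted from 0 and are given here from 1. Fragment numbers were derived from the deposited bounds, taken as 2 SD of a Poisson count.

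Genes at FPKM 1 or above in 2 or more libraries entered limma 3.58.1 (R 4.3.3) on log2(FPKM + 1), so changes of low genes are understated. All 10 libraries entered 1 fit with 4 group means, a trended prior variance and Benjamini-Hochberg adjustment over all 14813 tested genes, with 0.05 as the threshold. The fit was tested on simulated data. Comparisons within a line or siRNA share libraries with each other. Every member that passed the filter is named, and from each pathway list the 2 called genes with the largest change with SET siRNA in each line are named, with their change in the other line, besides the 2 largest differences between the lines among receptors and 2 export interactions. A few genes of these lists and a label check are not reported here. The members and lists were chosen with earlier results of these data known. Alternatives were other pseudocounts, filters, scalings and variance models, a replicate block, each library left out, and, chosen after seeing the data, voom on implied fragments. Libraries sharing a replicate number were not treated as pairs.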

Additional observations from a re-analysis of the deposited data

Results flagged for a closer look

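For 4 of 24 tested chains the SET siRNA response was called different between the lines in a direct test (the limma interaction, KO-line response minus WT-line response). The difference was -1.005 for COL3A1, -0.42 for COL5A2, -0.41 for COL4A5 and -0.40 for COL12A1 on the log2(FPKM + 1) scale. For COL3A1 the FPKM means with SET siRNA were 0.106-fold of control in the KO line and 0.0991-fold in the WT line, so its decrease as a ratio was not larger in the KO line, and the difference was -0.22 (adjusted p = 0.77) with a pseudocount of 0.1. Of all tested genes 19.1% were called in this test, against 16.7% of the tested chains, so the count is not particular to collagen chains. The call for COL12A1 held under every alternative run, and those for COL3A1, COL5A2 and COL4A5 did not.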

How the results depend on the processing

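Over 5 comparisons of 24 chains, 73 of 120 values were called, and 50 of these stayed called under every alternative. Of 2331 recomputed values 126 lost and 45 gained a call. The COL3A1 interaction changed sign, to 0.043, with voom on implied fragments, an alternative chosen after seeing the data. A further 51 recomputed values changed sign while called in neither fit, with original sizes of at most 0.14. With genes restricted to a mean FPKM of at least 5, only 15 chains are tested. Of these 11 were called between the lines with SET siRNA, 11 with control siRNA and 2 for the interaction. Leaving out 1 library at a time gave 12 to 18 called chains for SET siRNA in the KO line, 11 to 18 in the WT line, 15 to 19 between the lines with SET siRNA, 16 to 19 with control siRNA and 1 to 5 for the interaction. The interaction count was 2 without the second KO SET siRNA, first WT control or first WT SET siRNA library, and 1 without the second WT SET siRNA library. With a replicate block the counts were 18 (KO line), 18 (WT line), 19 (SET siRNA), 18 (control siRNA) and 5 (interaction). The share of all genes called under each alternative is not given here. Whether these counts moved with that share therefore cannot be read from them. Deviations of the 13 same-numbered library pairs correlated at -0.0833 to 0.228, with 3 over 0.1. The highest of all pairs, 0.217 and 0.228, joined same-numbered control libraries of the WT and KO lines. Within a group of 2 libraries the deviations mirror each other, so these pairs are not separate checks and cannot decide on pairing. Numbers were not taken as pairing in the main fit. Chains below FPKM 1 rest on few fragments, and 2 libraries per KO group limit the precision.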
